A study of Mus musculus with 9 samples.

Results

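The Gimap genes encode a family of 8 GTPases of immunity-associated proteins in the mouse genome annotation used here: Gimap1, Gimap3, Gimap4, Gimap5, Gimap6, Gimap7, Gimap8 and Gimap9. They were taken by gene symbol from a table of 19572 probe sets (array features that report a transcript) for 19505 genes. Each of the 8 genes had 1 probe set, so the rule of keeping the probe set with the highest mean made no choice. The genes were chosen by their name, but the family was picked with the low signal of Gimap6 in shZeb1_D relative to Scr already known. The comparison of shZeb1_D with Scr is therefore a description for this family: its adjusted p-values are those of the fit over the whole table, they are no independent support, and nothing is read from the share of members called there.

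Expression was measured on 9 arrays of C1498 cells, a mouse line established from acute myeloid leukaemia. The cells had been infected with lentivirus carrying green fluorescent protein (GFP) and a short hairpin RNA against Zeb1 of sequence D (shZeb1_D) or sequence C (shZeb1_C), or a negative control construct (Scr), with 3 arrays in each group. GFP-positive cells of all 3 groups were isolated 2 weeks after infection, as bulk populations. Nothing in the labels ties the 3 arrays of a group to separate infections, and the spread behind the p-values may therefore be technical.

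GIMAP proteins bind guanine nucleotides through a shared domain, and several of them sit on the membranes of the endoplasmic reticulum, Golgi, mitochondria or lysosomes. They are known mainly from lymphocytes, where they influence survival, calcium handling and autophagy. Loss of Gimap5 causes a severe lack of T cells in rats and mice, and loss of Gimap1 removes mature T and B cells in mice. In bulk samples, fewer cells of a type and less RNA per cell cannot be told apart.

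The label of myeloid leukaemia was set beside marker genes, as a description only, since signals of different probe sets are not on 1 scale. Of 17 measured myeloid markers, 3 lay above the median level of all named probe sets (7.10, log2), namely Ptprc, which all leukocytes carry, Mpo and Fcgr3. Itgam, Spi1 and Cebpa were below it. Of 13 measured T cell markers, Cd5, Cd6, Cd8a, Cd8b1 and Thy1 were below it. The other 8 lay above it, among them Cd3d, Cd3e and Cd3g, chains of the T cell receptor complex. Their counterparts were 2 of 7 for B cells, 3 of 9 for NK cells and 1 of 6 for endothelial cells, and Cdh5, which defines endothelium, stood at 4.66, 4.62 and 4.58 in shZeb1_D, shZeb1_C and Scr. All 8 Gimap genes lay above the median level.

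Zeb1, the target of the hairpins, stood at 9.56, 9.26 and 9.40 in shZeb1_D, at 10.41, 10.01 and 10.34 in the arrays labelled shZeb1_C and at 10.52, 10.29 and 10.56 in Scr (log2 signal, as throughout). The shZeb1_D arrays were thus all below the others, while the arrays labelled shZeb1_C overlapped with Scr. Its log2 fold change was -1.05 ± 0.16 (SE; limma adjusted p = 0.0263) in shZeb1_D and -0.20 ± 0.16 (adjusted p = 0.895) in the arrays labelled shZeb1_C. Its call in shZeb1_D did not survive leaving out Scr replicate 7, 8 or 9 or shZeb1_D replicate 14 or 15 (highest adjusted p = 0.157).

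Array medians ran from 6.97 to 7.16. Once group means were removed, the first principal component held 57.9% of the remaining variation, and its sign split the arrays into a set of 5 and a set of 4. Scr replicate 8, shZeb1_C replicate 12 and shZeb1_D replicates 14 and 15 formed the smaller set. It held arrays of every group but more of shZeb1_D than of either other group. The sets are therefore partly confounded with the comparisons of shZeb1_D.

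The 8 genes lie side by side on chromosome 6. In the RefSeq gene order (GRCm38.p6), with measured genes only, the cluster runs Gimap8, Gimap9, Gimap4, Gimap6, Gimap7, Gimap1, Gimap5, Gimap3. Zfp775 precedes it and Tmem176b follows it, and no other measured gene falls inside. Their promoters are shown because the members share a cluster and because Zeb1 binds DNA at E-boxes of the form CACCTG. The window was the 250 bases before each start, from RefSeq (GRCm38.p6), with 9 windows for the 8 genes because Gimap8 has a pair of starts. CACCTG, searched on both strands and so also as CAGGTG, was found in the window of Gimap9 alone, against 17.2% of 32851 promoters of the same length. Its shorter core CACCT (or AGGTG), which any CACCTG also holds, was found in Gimap7 and Gimap9, against 46.0% of all promoters.

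Capitals in the following windows mark every match to the motifs searched, which besides CACCT were the RUNX core TGTGGT (or ACCACA), the GATA motif AGATAA (or TTATCT) and the ETS motif CGGAAG (or CTTCCG). Gimap6 and Gimap4 are given because they had the largest changes, Gimap9 as the window with the E-box, and Gimap7 as the other window with the core.
Gimap6, chr6:48708245-48708494, minus strand: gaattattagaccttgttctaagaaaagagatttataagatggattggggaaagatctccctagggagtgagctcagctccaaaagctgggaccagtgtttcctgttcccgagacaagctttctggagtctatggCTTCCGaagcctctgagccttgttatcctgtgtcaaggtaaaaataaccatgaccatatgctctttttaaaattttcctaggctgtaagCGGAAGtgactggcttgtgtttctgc
Gimap4, chr6:48684328-48684577, plus strand: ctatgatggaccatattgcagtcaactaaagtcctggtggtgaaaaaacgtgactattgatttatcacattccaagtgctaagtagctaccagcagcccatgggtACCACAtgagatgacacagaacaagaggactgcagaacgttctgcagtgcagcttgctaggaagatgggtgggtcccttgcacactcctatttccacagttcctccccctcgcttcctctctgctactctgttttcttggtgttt
Gimap9, chr6:48675885-48676134, plus strand: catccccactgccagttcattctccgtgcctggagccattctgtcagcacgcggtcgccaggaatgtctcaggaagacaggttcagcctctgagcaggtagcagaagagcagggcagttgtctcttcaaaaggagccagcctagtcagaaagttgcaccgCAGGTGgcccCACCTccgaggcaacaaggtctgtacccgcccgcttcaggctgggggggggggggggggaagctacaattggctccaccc
Gimap7, chr6:48718371-48718620, plus strand: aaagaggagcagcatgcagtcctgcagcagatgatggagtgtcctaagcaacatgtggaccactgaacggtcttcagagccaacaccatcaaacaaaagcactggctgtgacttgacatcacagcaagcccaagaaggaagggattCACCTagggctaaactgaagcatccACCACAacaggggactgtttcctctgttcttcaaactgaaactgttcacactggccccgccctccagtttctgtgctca

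In Gimap6 the capitals are ETS matches that begin 115 and 26 bases before the start, and in Gimap4 a RUNX match that begins 145 bases before it. In Gimap9 the E-box begins 90 bases before the start and the separate core 80 bases before it. In Gimap7 the core begins 104 and the RUNX match 79 bases before the start. ETS matches were found in 3 of the 8 genes (Gimap1, Gimap6, Gimap8) against 13.6% of all promoters, RUNX matches in 3 (Gimap1, Gimap4, Gimap7) against 14.0%, and GATA matches in 0 against 9.99%. A match is a description of letters, and a window without one says nothing of the factor.

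In shZeb1_D against Scr, the values of all 8 Gimap genes were lower, as were those of 44.0% of all probe sets, and 3 of them, Gimap6, Gimap4 and Gimap8, passed the test as falls. The 3 genes stood at 12.7%, 21.0% and 30.1% of their Scr level. The log2 fold changes of the family ran from -2.98 to -1.07 with a median of -1.47, against a median of 0.04 over all probe sets. Over the whole table limma called 165 of 19572 probe sets in this comparison, 0.843%, and called 0.445% as falls. Of the 8 genes, 7 had an unadjusted p under 0.05, against 13.6% of all probe sets.

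Gimap6, which binds the autophagy protein Gabarapl2, had the largest difference. It stood at 8.66, 9.11 and 8.41 in shZeb1_D, at 11.90, 11.04 and 11.29 in the arrays labelled shZeb1_C and at 11.10, 11.69 and 12.32 in Scr. The shZeb1_D arrays lay at least 1.99 below every Scr array, and the arrays labelled shZeb1_C overlapped with Scr. The log2 fold change of shZeb1_D against Scr was -2.98 ± 0.34 (SE, 95% interval -3.74 to -2.21; limma adjusted p = 0.00856). It stayed past the threshold when 8 of the 9 arrays were left out in turn and was -2.82 with an adjusted p of 0.0572 without shZeb1_D replicate 15. Leaving out that array brought the calls over the whole table from 165 to 17.

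Gimap4, which speeds the death of T cells once apoptosis has begun, stood at 9.02, 10.21 and 8.95 in shZeb1_D, at 11.75, 11.27 and 11.38 in the arrays labelled shZeb1_C and at 11.02, 11.96 and 11.96 in Scr. All 3 shZeb1_D arrays were below all others, replicate 14 being the nearest to Scr with a gap of 0.81. Its log2 fold change was -2.25 ± 0.37 (SE; limma adjusted p = 0.0326). This call was lost in 6 of the 9 cases in which an array was left out, those of Scr replicates 8 and 9, shZeb1_C replicates 10 and 11 and shZeb1_D replicates 13 and 15, with log2 fold changes of -2.25 to -2.03 and adjusted p of up to 0.184.

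Gimap8, the family member with several GTP-binding domains in a single chain, stood at 9.27, 8.92 and 8.87 in shZeb1_D, at 10.83, 11.11 and 9.99 in the arrays labelled shZeb1_C and at 11.02, 10.23 and 11.00 in Scr. The shZeb1_D arrays lay within 0.40 of each other and 0.96 or more below Scr. Its log2 fold change was -1.73 ± 0.32 (SE), close to the threshold (limma adjusted p = 0.0460). It passed in 2 of the 9 cases with an array left out, those without Scr replicate 8 and without shZeb1_C replicate 12, with adjusted p of up to 0.238 without Scr replicate 9.

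**Figure D1:**
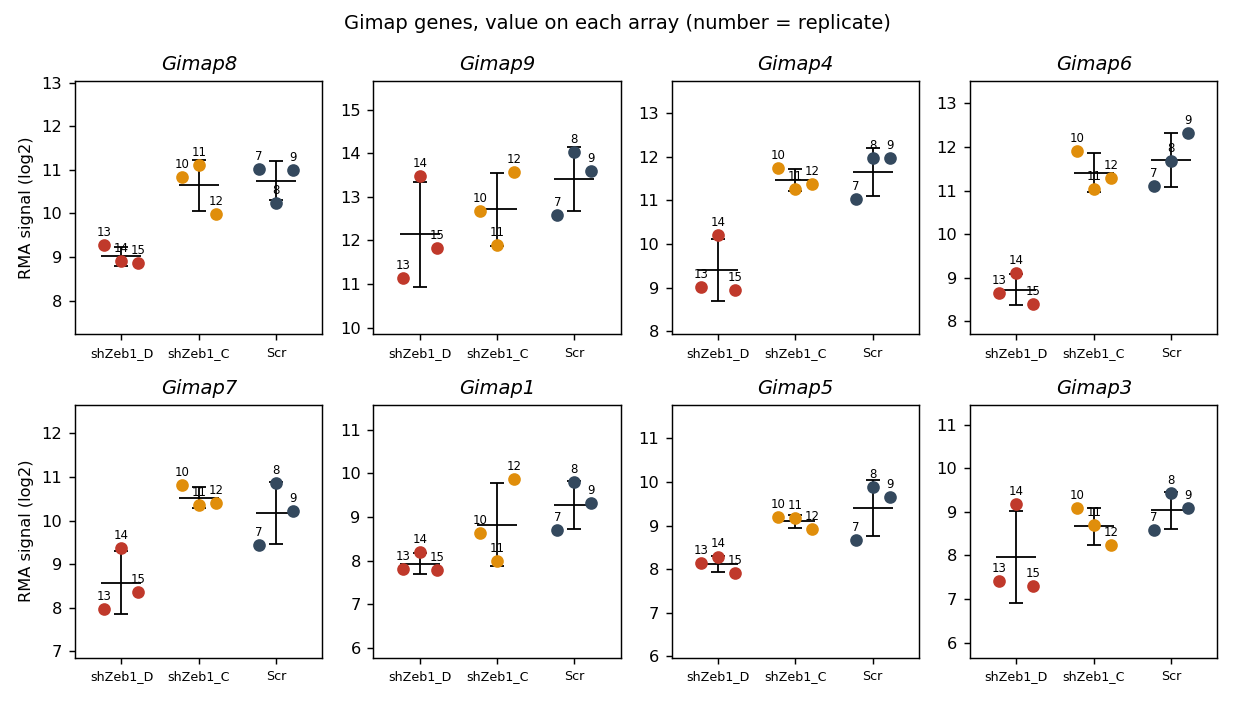
Log2 RMA signal of the 8 Gimap genes (panels in the order of the cluster) on each array of shZeb1_D, shZeb1_C and Scr; points are arrays labelled by replicate, and horizontal and vertical black lines are the mean and SD of 3 arrays. Every panel spans the same number of log2 units around its own mean. The shZeb1_D points of Gimap6 (8.41 to 9.11), Gimap4 (8.95 to 10.21) and Gimap8 (8.87 to 9.27) sit below all other points of their panels, while shZeb1_D replicate 14 of Gimap3 and Gimap9 reaches the Scr range.

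The remaining 5 genes did not pass the test, although all were lower in shZeb1_D by 1 or more on the log2 scale, as 2.44% of all probe sets were. Gimap7 averaged 8.57 ± 0.72 in shZeb1_D and 10.17 ± 0.71 in Scr (SD, n = 3 each), a log2 fold change of -1.60 ± 0.41 (SE; limma adjusted p = 0.14). Human GIMAP7 hydrolyses GTP as a dimer. Gimap5, the survival factor of T cells, averaged 8.12 ± 0.19 in shZeb1_D and 9.40 ± 0.64 in Scr, a log2 fold change of -1.28 ± 0.29 (adjusted p = 0.0987). With each array left out in turn, Gimap5 passed only without Scr replicate 7, its lowest Scr array (-1.65 ± 0.18, adjusted p = 0.0234). Its adjusted p reached 0.387 without Scr replicate 9. Gimap1 averaged 7.93 ± 0.24 in shZeb1_D and 9.27 ± 0.55 in Scr, a log2 fold change of -1.35 ± 0.45 (adjusted p = 0.238). The arrays of shZeb1_D lay below those of Scr for Gimap7, Gimap5 and Gimap1, by gaps of 0.06, 0.38 and 0.50.

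Gimap3 and Gimap9 were the members whose shZeb1_D arrays overlapped with Scr. Gimap3, a relative of Gimap5 on the outer mitochondrial membrane in mice, stood at 7.41, 9.17 and 7.31 in shZeb1_D and at 8.59, 9.44 and 9.08 in Scr (log2 fold change -1.07 ± 0.47, SE; limma adjusted p = 0.365). Gimap9 stood at 11.13, 13.47 and 11.82 in shZeb1_D and at 12.59, 14.02 and 13.60 in Scr (-1.26 ± 0.64; adjusted p = 0.428). In both genes the overlap came from shZeb1_D replicate 14, the highest of its group. In all, 6 of the 8 genes had non-overlapping shZeb1_D and Scr arrays with shZeb1_D lower, against 6.65% of all probe sets. Gimap3 and Gimap5 are closely related in sequence, the probe sequences were not used here, and whether their probe sets cross-react was not tested.

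In the arrays labelled shZeb1_C, no Gimap gene passed the test against Scr, where limma called 0.945% of all probe sets, 0.286% as falls. The log2 fold changes ran from -0.69 to 0.36 with a median of -0.30, against 0.00 over all probe sets, and 0 of the 8 genes had an unadjusted p under 0.05, against 8.77% of all probe sets. The mean was lower than in Scr for 7 of the 8, against 49.6% of all probe sets. Gimap9 averaged 12.72 ± 0.84 in the arrays labelled shZeb1_C and 13.40 ± 0.74 in Scr (SD, n = 3 each), and Gimap7, the single member with a higher mean, 10.53 ± 0.24 and 10.17 ± 0.71. For Gimap6 the log2 fold change was -0.29 with a 95% interval of -1.06 to 0.47, for Gimap4 -0.18 with an interval of -1.02 to 0.66, and for Gimap8 -0.11 with an interval of -0.82 to 0.61. All 8 intervals included 0, and the arrays overlapped with Scr for all 8 genes, where 6.74% of all probe sets had every array lower. Missing the threshold does not show that these levels were alike.

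The direct comparison of the hairpins gave Gimap6 and Gimap4 as lower in shZeb1_D, 2 of 8 genes, where limma called 0.848% of all probe sets, 0.542% as lower. All 8 means were lower in shZeb1_D, against 44.4% of all probe sets, and 5 of the 8 genes had an unadjusted p under 0.05, against 11.7%. Gimap6 had a log2 difference of -2.68 ± 0.34 (shZeb1_D minus shZeb1_C, SE; limma adjusted p = 0.00899) and Gimap4 one of -2.07 ± 0.37 (adjusted p = 0.0428). Without shZeb1_D replicate 15 both missed the threshold, with adjusted p of 0.0587 and 0.188, and Gimap4 kept its call only without Scr replicate 7 or shZeb1_D replicate 14. Gimap8 (-1.62 ± 0.32; adjusted p = 0.0566) and Gimap7 (-1.96 ± 0.41; adjusted p = 0.0772) missed it. The remaining genes were Gimap5 at -0.97 ± 0.29, Gimap1 at -0.90 ± 0.45, Gimap3 at -0.71 ± 0.47 and Gimap9 at -0.58 ± 0.64, with adjusted p of 0.216 to 0.771. In 5 of the 8 genes the shZeb1_D arrays were all below the arrays labelled shZeb1_C, against 6.26% of all probe sets. This comparison shares the shZeb1_D arrays with that against Scr, so it is no separate evidence of the level in shZeb1_D.

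**Figure D2:**
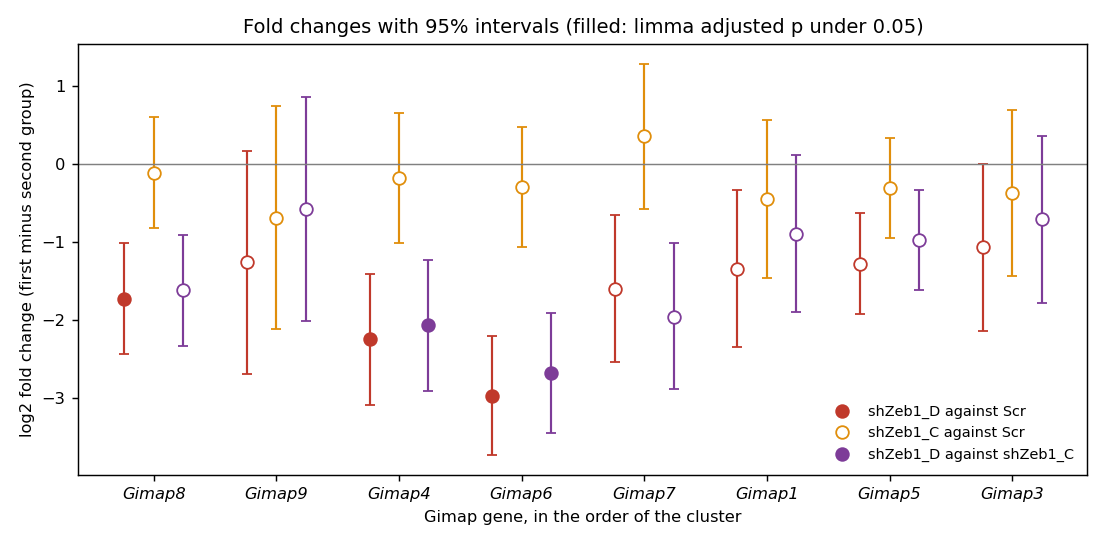
Log2 fold changes of the 8 Gimap genes, in the order of the cluster, for shZeb1_D against Scr (red), shZeb1_C against Scr (orange) and shZeb1_D against shZeb1_C (purple), as first minus second group, with 95% intervals from limma; filled points passed at an adjusted p under 0.05. Red points lie between -2.98 and -1.07 and orange points between -0.69 and 0.36, and the lowest red and purple points are those of Gimap6 in the middle of the cluster.

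The members did not vary alike within the groups. In shZeb1_D, replicate 14 was the highest of the 3 arrays for 7 of the 8 genes, against 35.8% of all probe sets, with Gimap8 as the exception. In Scr, replicate 7 was the lowest for 7 of the 8, against 31.2% of all probe sets, and Gimap8 was again the exception, with its highest Scr value there. The widest spread within a group was that of Gimap9 in shZeb1_D (2.34) and the narrowest that of Gimap5 in the arrays labelled shZeb1_C (0.27).

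Gimap8 followed the sets of arrays described above. It was below its group mean on all 4 arrays of the smaller set, by 0.52 on Scr replicate 8, 0.65 on shZeb1_C replicate 12 and 0.10 and 0.15 on shZeb1_D replicates 14 and 15. Gimap9 and Gimap1 were above their group means on Scr replicate 8 (by 0.62 and 0.53), shZeb1_C replicate 12 (0.85 and 1.04) and shZeb1_D replicate 14 (1.33 and 0.27), though not on shZeb1_D replicate 15. With the sets as a covariate, 6 of the 8 genes were called in shZeb1_D against Scr, all but Gimap3 and Gimap9, where that fit called 3.94% of all probe sets in place of 0.843%. Between the hairpins it called 4 of the 8, against 3.58% of all probe sets in place of 0.848%. In shZeb1_D against Scr, that fit gave a member median of -1.65 in place of -1.47. It gave -1.63 in place of -1.35 for Gimap1 and -1.49 in place of -1.73 for Gimap8. Because the sets were read from the same values, the p-values of that fit are too small, and the part of the sets in these results was not tested.

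**Figure D3:**
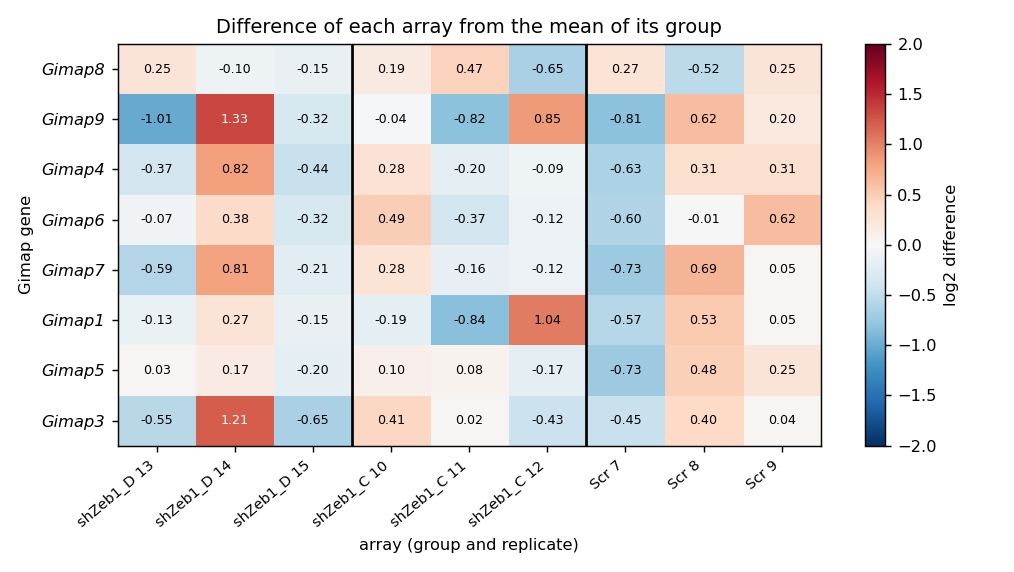
Difference of each array from the mean of its group (log2, colour and printed number) for the 8 Gimap genes (rows, in the order of the cluster) and the 9 arrays (columns, with shZeb1_D, shZeb1_C and Scr divided by black lines). The column of shZeb1_D replicate 14 is positive and that of Scr replicate 7 negative for every gene but Gimap8, whose row goes the other way.

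Patterns over the 9 arrays were compared by the root-mean-square difference of log2 values after each gene's mean was subtracted, which is 0 for identical patterns. Among the 28 pairs of members, Gimap4 and Gimap7 were the closest (0.34), then Gimap4 and Gimap6 (0.41). Gimap3 with Gimap5 (0.48) and Gimap1 with Gimap9 (0.50) came next. Gimap8 with Gimap9 (1.14), neighbours on the chromosome, and Gimap6 with Gimap9 (1.12) were the farthest apart.

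Outside the family, the 5 named genes closest to Gimap6 were Shtn1 (0.43), Tnfrsf26 (0.56), Tm6sf1 (0.61), Tnrc18 (0.61) and Map7d3 (0.62), on chromosomes 19, 7, 7, 5 and X. Shtn1, the cytoskeletal protein shootin 1, stood at 8.19, 9.10 and 8.04 in shZeb1_D, at 11.85, 11.44 and 11.25 in the arrays labelled shZeb1_C and at 10.63, 11.04 and 11.13 in Scr. Tnfrsf26, a receptor of the tumour necrosis factor receptor family, stood at 10.57, 10.57 and 10.47 in shZeb1_D and at 12.41, 12.00 and 12.96 in Scr. For the mean pattern of Gimap4, Gimap6 and Gimap8 the closest were Tnfrsf26 (0.34), Map7d3 (0.39), Mybl2 (0.40), a MYB-family transcription factor of dividing cells, Tm6sf1 (0.42) and Tnrc18 (0.43). A search for patterns like these returns genes that are low in shZeb1_D, so their fold changes are no further result.

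**Figure D4:**
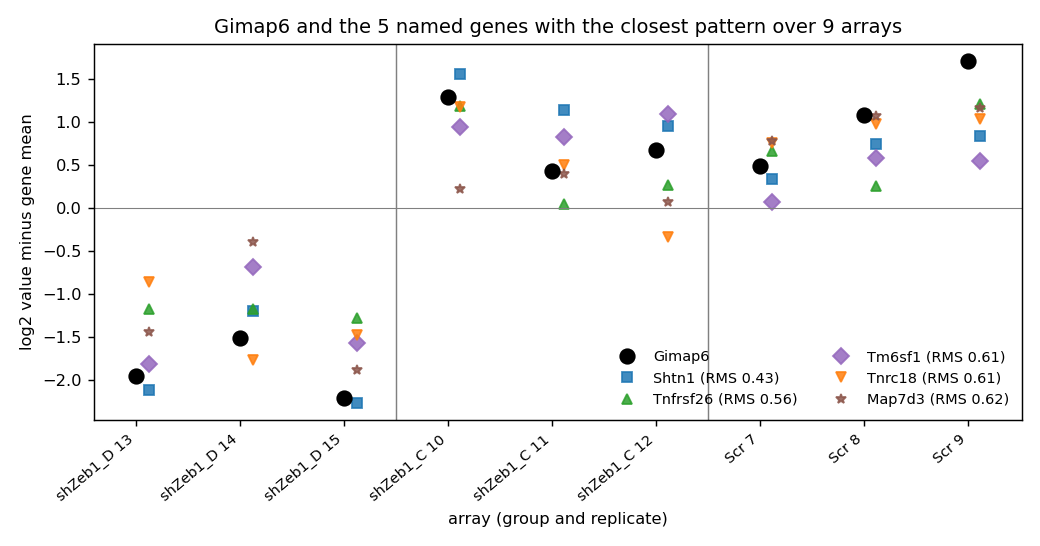
Log2 value minus the mean of each gene over the 9 arrays, for Gimap6 (black) and the 5 named genes outside the family with the smallest root-mean-square (RMS) difference from it. Points of shZeb1_D stand at the left below 0, and those of shZeb1_C and Scr above 0 but for Tnrc18 on shZeb1_C replicate 12; Shtn1 at an RMS difference of 0.43 is the nearest.

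With 15 measured genes on each side of the cluster, limma called 0 of 30 in shZeb1_D against Scr, where it called 0.843% of all probe sets. An unadjusted p under 0.05 was found for 5 of the 30, against 13.6% of all probe sets, so both counts were near the share over the whole table. Their median log2 fold change was 0.16, against -1.47 for the 8 Gimap genes. On the Gimap8 side, Zfp775, Repin1 and Gm5111 had log2 fold changes of 0.22 ± 0.17, -0.68 ± 0.33 and 0.14 ± 0.13 (SE). On the Gimap3 side, Tmem176b and Tmem176a, membrane proteins of myeloid and dendritic cells, had 1.40 ± 0.41 and 1.12 ± 0.35, and Aoc1, a diamine oxidase, 0.07 ± 0.16. Neither Tmem176 gene was called in shZeb1_D (limma adjusted p of 0.191 and 0.22). They were not called in the arrays labelled shZeb1_C either (1.68 ± 0.41 and 1.38 ± 0.35, with adjusted p of 0.131 and 0.149). Both comparisons use the same Scr arrays, so the second is no separate evidence. In the arrays labelled shZeb1_C the 30 neighbours had a median of -0.02 and 0 calls (0.945% of all probe sets). Of these, 5 genes had an unadjusted p under 0.05 (8.77% of all probe sets).

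**Figure D5:**
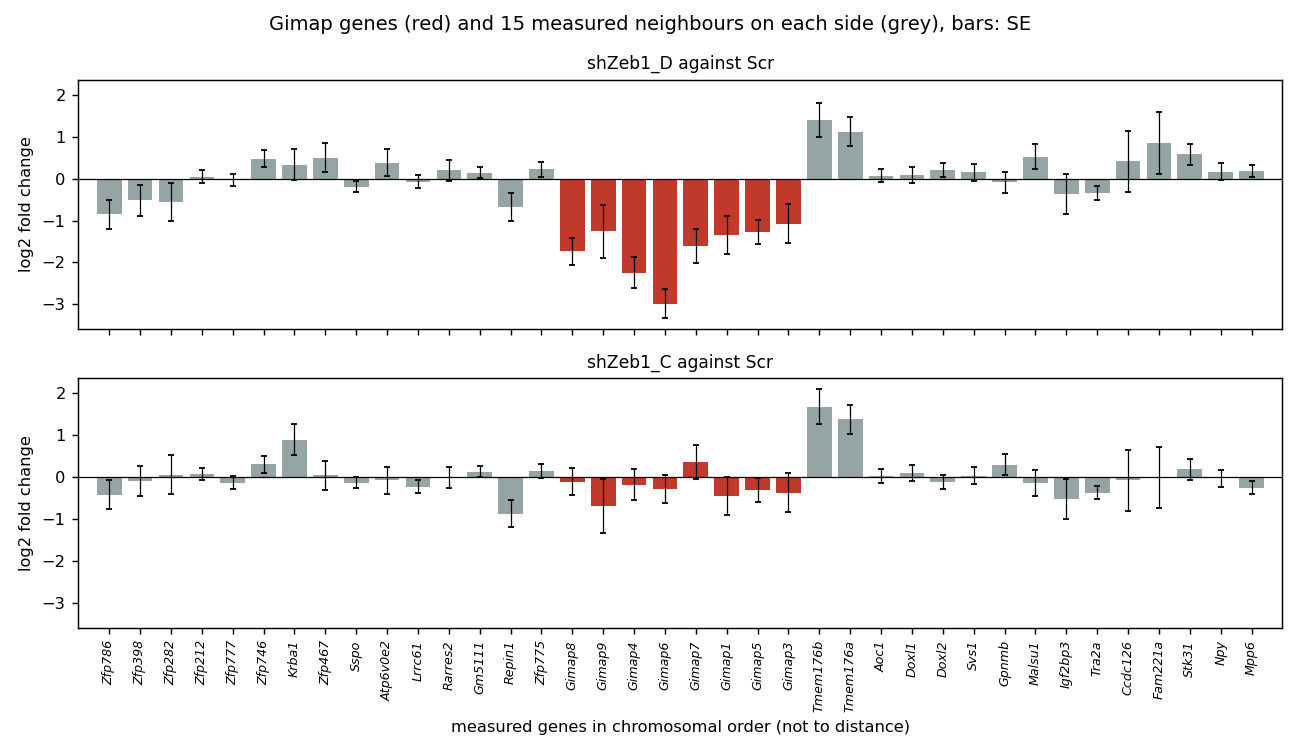
Log2 fold change with SE for the 8 Gimap genes (red) and 15 measured genes on each side (grey) in the order of chromosome 6, for shZeb1_D against Scr (top) and shZeb1_C against Scr (bottom); spacing is by gene order, not distance. Red bars of the top panel reach from -1.07 to -2.98 between Zfp775 at 0.22 and Tmem176b at 1.40, while red bars of the bottom panel lie between -0.69 and 0.36.

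Genes tied to what GIMAP proteins are known for were followed in the same fit. Against Scr, limma called 0.843% of all probe sets in shZeb1_D and 0.945% in the arrays labelled shZeb1_C. An unadjusted p under 0.05 was found for 13.6% and 8.77% of all probe sets. With shares of calls this low, 0 calls in a short list are not read as a result about its genes. Of 20 measured genes of the Bcl-2 family and apoptosis, with which GIMAP5 and its relatives have been linked, limma called 0 in any of the 3 comparisons, and 1 in shZeb1_D and 3 in the arrays labelled shZeb1_C had an unadjusted p under 0.05 against Scr. Their median log2 fold change was -0.19 in shZeb1_D and -0.01 in the arrays labelled shZeb1_C, against 0.04 and 0.00 over all probe sets. Bcl2 itself averaged 8.81 in shZeb1_D, 9.95 in the arrays labelled shZeb1_C and 9.38 in Scr. Its log2 fold changes against Scr were -0.56 ± 0.25 and 0.57 ± 0.25 (SE, limma adjusted p of 0.373 and 0.567). The largest change of the list against Scr was that of Bcl2a1b in the arrays labelled shZeb1_C (3.48 ± 0.83, adjusted p = 0.12). In shZeb1_D Bcl2a1b had -0.02 ± 0.83. Of 23 measured autophagy genes, limma called 0 in any comparison, with medians of -0.21 and -0.11 and with 4 and 0 genes at an unadjusted p under 0.05. Gabarapl2, the binding partner of Gimap6, averaged 13.43, 13.52 and 13.34 in shZeb1_D, shZeb1_C and Scr.

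Of 12 measured genes of lymphocyte survival and quiescence, 1 rose with either hairpin and 0 fell, with a list median of 0.05 in both comparisons with Scr. Of all probe sets, limma called 0.843% in shZeb1_D and 0.945% in the arrays labelled shZeb1_C. An unadjusted p under 0.05 was found for 4 of the 12 in each comparison, against 13.6% and 8.77% of all probe sets. The riser was S1pr1, the sphingosine-1-phosphate receptor that lets lymphocytes leave lymphoid organs. It averaged 7.60 in shZeb1_D and 5.90 in Scr, a log2 fold change of 1.70 ± 0.23 (SE; limma adjusted p = 0.0188), and 7.17 in the arrays labelled shZeb1_C (1.27 ± 0.23; adjusted p = 0.0417). The mean of S1pr1 over all arrays lay below the median level of all named probe sets. Both comparisons use the same Scr arrays. In shZeb1_D, S1pr1 no longer passed without Scr replicate 7 or 9 or shZeb1_D replicate 15 (adjusted p of up to 0.077). In the arrays labelled shZeb1_C it passed only without shZeb1_D replicate 13 or 14 (adjusted p of up to 0.13 otherwise).

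Transcription factors of lymphoid and leukaemic cells gave 0 calls among 18 measured genes in any comparison. List medians were -0.10 in shZeb1_D and -0.02 in the arrays labelled shZeb1_C. An unadjusted p under 0.05 was found for 1 and 5 genes, against 13.6% and 8.77% of all probe sets. Runx3 averaged 14.13 in shZeb1_D and 14.34 in Scr, and Ikzf1, the lymphoid factor Ikaros, 15.27 and 15.44. Other genes of the list moved further, in both directions. Against Scr, log2 fold changes ran from -0.97 (Tcf3) to 0.76 (Runx1) in shZeb1_D. In the arrays labelled shZeb1_C they ran from -1.15 (Lyl1) to 2.33 (Id2). Interferon-induced GTPases of the Irg and Mx families, another group of immune GTPases, gave 0 calls among 9 measured genes, with medians of 0.17 and 0.18 and with 1 and 3 genes at an unadjusted p under 0.05, and 1 of the 9 lay above the median level.

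Markers of other cells were set beside the Gimap values. The 13 T cell markers gave 0 limma calls in shZeb1_D against Scr (0.843% of all probe sets), with a median log2 fold change of 0.18. An unadjusted p under 0.05 was found for 2 of the 13, against 13.6% of all probe sets. Their mean levels per array were 9.21 to 9.41 in shZeb1_D, 9.41 to 9.73 in the arrays labelled shZeb1_C and 9.26 to 9.43 in Scr. Within the list Cd28, a costimulatory receptor, averaged 8.34 ± 0.67 in shZeb1_D and 10.13 ± 0.45 in Scr (SD, n = 3 each; limma adjusted p = 0.123), and was picked out after its values were seen. Zap70 of the same list went the other way, averaging 12.55 ± 0.55 in shZeb1_D and 11.39 ± 0.67 in Scr (limma adjusted p = 0.252). Cd3g averaged 15.44 ± 0.07 in shZeb1_D and 15.53 ± 0.06 in Scr, and Cd3d 12.25 ± 0.57 and 12.21 ± 0.68. Cd3e averaged 13.80 ± 0.53 and 14.65 ± 0.74 (limma adjusted p = 0.374).

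Of 9 measured NK cell markers, limma called 3 as higher in the arrays labelled shZeb1_C than in Scr. It called 0.945% of all probe sets there. In shZeb1_D against Scr it called 0 of the 9, and 0.843% of all probe sets. There 1 of the 9 had an unadjusted p under 0.05, against 13.6% of all probe sets. Gzmb averaged 10.39 ± 1.40 in the arrays labelled shZeb1_C and 6.06 ± 0.33 in Scr (SD, n = 3 each). Klrk1 averaged 9.13 ± 0.68 and 7.15 ± 0.39. Nkg7 averaged 10.52 ± 1.88 in the arrays labelled shZeb1_C and 4.58 ± 0.32 in Scr. No size is given for these differences because signal over background cannot be judged from these values. Klrd1 (log2 fold change 2.16 ± 0.67, SE; adjusted p = 0.271) and Klrb1c (1.51 ± 0.46; adjusted p = 0.249) were not called, nor were Tbx21 (0.15 ± 0.25), Ncr1 (0.08 ± 0.13), Prf1 (-0.10 ± 0.14) and Eomes (-0.22 ± 0.18). Nkg7 and Gzmb no longer passed without Scr replicate 8 or 9 (adjusted p of up to 0.0584), and Klrk1 passed only without shZeb1_D replicate 13 (up to 0.187 otherwise). The mean level of the 9 markers per array was 6.24 to 6.64 in shZeb1_D, 7.50 to 8.34 in the arrays labelled shZeb1_C and 5.78 to 6.49 in Scr. In shZeb1_D against Scr, limma called 0 of 7 B cell, 0 of 6 endothelial and 0 of 17 myeloid markers. In these lists 2, 0 and 2 genes had an unadjusted p under 0.05, against 13.6% of all probe sets. The mean level of the B cell markers, of which 2 of 7 lay above the median level, was 6.45 to 6.46 on the shZeb1_D arrays and 6.22 to 6.28 on the Scr arrays. No share over the whole table is at hand for such a list mean, so this gap is not read as a result. The mean level of the myeloid markers was 6.66 to 6.81 and 6.66 to 6.75. In the arrays labelled shZeb1_C against Scr, 1 of the 17 myeloid markers, Fcgr3, fell by 4.10. There limma called 0.286% of all probe sets as falls. The part of other cell types in the Gimap values was not tested.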

How the data were processed

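RNA of 9 samples of C1498 cells was hybridised to 1-colour arrays, 3 per group. RMA and the Transcriptome Analysis Console are named, without versions, in the submitters' processing notes. Other details of the processing are not given in the sources used here. The values the authors deposited were linear signals, each of them 2 raised to a log2 number with 2 decimals, stored with the decimal point missing. Each of the 199854 values was returned to log2 by the place of the point that makes log2 a multiple of 0.01 (tolerance 1e-06 steps; farthest accepted 1.1e-12, nearest rejected 0.036). Of 22206 probe sets, the platform annotation gave 1 gene symbol to 19572, several to 0 and none to 2634; all 19572 were matched by gene identifier to RefSeq (GRCm38.p6).

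All 19572 were tested with limma 3.58.1 (R 4.3.3) on log2 values, with 3 group means estimated from all 9 arrays together and Benjamini-Hochberg adjustment within each comparison. The threshold was an adjusted p under 0.05. Lists are described by counts and medians. Exact two-sided permutation tests of 3 arrays against 3 cannot go below p = 0.10. The fit was also run on simulated data with known changes and independent noise on each array. Such data lack the variation shared between arrays, so that run cannot check the calls for it. Precision is limited by the 3 arrays per group. The members and lists were chosen with earlier results of these data known. Besides the members, the rule for naming genes covered Zeb1, the 5 genes closest in pattern, the 3 nearest neighbours on each side and called members of lists. Other genes were added afterwards and fall outside that rule. They include Bcl2 and Gabarapl2, given as background to the members, and uncalled list genes such as Runx3, Ikzf1, Cd28, Zap70 and Cd3g. No genome build is stated for the arrays, so coordinates are those of the RefSeq promoters. Alternatives covered normalization, dim or unnamed probe sets, variance prior, array weights, arrays in the fit, probe sets per gene, array sets, threshold and leaving out each array.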

Additional observations from a re-analysis of the deposited data

Results flagged for a closer look

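For 2 of the 8 members the hairpins themselves differed in the direct test, where limma called 0.848% of all probe sets. Gimap6 was lower in shZeb1_D than in the arrays labelled shZeb1_C by a log2 difference of -2.68 (limma adjusted p = 0.00899), and Gimap4 by one of -2.07 (adjusted p = 0.0428), in 3 of 3 arrays each. Zeb1 itself differed by -0.85 between the same groups, without passing (adjusted p = 0.056). Neither Gimap call held without shZeb1_D replicate 15 (limma adjusted p of 0.0587 and 0.188). Gimap4 kept its call only without Scr replicate 7 or shZeb1_D replicate 14. The family was picked with the low Gimap6 signal of these shZeb1_D arrays known, so neither call is independent support.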

How the results depend on the processing

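All 8 members stayed lower in shZeb1_D, against Scr and against the arrays labelled shZeb1_C, in every setting tried. Members called in shZeb1_D against Scr (3) were 1 with only the 6 arrays compared, 6 with the array sets as a covariate and 0 to 3 with an array left out (0 without shZeb1_D replicate 15, and 1 without Scr replicate 9, shZeb1_C replicate 10 or 11, or shZeb1_D replicate 13). Between the hairpins (2) they were 1 with array medians subtracted or only 6 arrays, 4 with array weights, array sets or an adjusted p under 0.10, and 0 to 3 with an array left out (0 without shZeb1_D replicate 15, 1 without Scr replicate 9, shZeb1_C replicate 10 or 11, or shZeb1_D replicate 13). For shZeb1_C against Scr the count was 0 throughout. The Gimap8 call in shZeb1_D was also lost after quantile normalization (adjusted p = 0.0591), with unnamed probe sets (0.0506), with a trended robust prior (0.0593) and with 6 arrays (0.0517), and that of Gimap4 with 6 arrays (0.0808). Array weights added Gimap5 (0.0282). Member medians ran from -0.59 to -0.10 in shZeb1_C, -1.80 to -1.17 in shZeb1_D and -1.50 to -1.21 between the hairpins with an array left out.

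In shZeb1_C against Scr, where no member was called, signs turned without Scr replicate 9 for Gimap6 (0.02) and Gimap8 (0.02), without Scr replicate 7 for Gimap7 (-0.01) and Gimap8 (0.03), and without shZeb1_C replicate 12 for Gimap8 (0.22); with each array left out in turn the ranges were -0.59 to 0.02 for Gimap6, -0.01 to 0.70 for Gimap7 and -0.37 to 0.22 for Gimap8. Over all probe sets, calls were 572, 1076 and 833 with array weights, 875, 772 and 700 with array sets and 316, 300 and 313 at an adjusted p under 0.10, for shZeb1_C, shZeb1_D and the hairpins, against 185, 165 and 166. With array medians subtracted, the calls in shZeb1_D were 54 higher and 90 lower, against 78 and 87. With 6 arrays they were 68 in shZeb1_D and 81 between the hairpins. Leaving out an array gave 43 to 214, 14 to 213 and 49 to 162, the fewest without Scr replicate 9 in shZeb1_C and shZeb1_D and without shZeb1_D replicate 15 between the hairpins. The causes were not tested. No paired analysis was possible because the groups share no replicate number. Signal over background cannot be judged from these values, which limits the dimmer members.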
